A study of Homo sapiens with 6 samples.

Results

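The 6 zinc finger gene clusters of human chromosome 19 held 244 regions of N6-methyladenosine (m6A) signal out of 25737 in the whole series. Peaks of 3 lists were merged into a region wherever they overlapped by 1 bp or more on a strand, and the members are the regions, on either strand, whose centre lay in one of 6 windows of chromosome 19 (hg19). The windows ran from 11.70 to 12.60 Mb, 19.80 to 24.40 Mb, 36.70 to 38.40 Mb, 44.33 to 45.00 Mb, 52.30 to 54.00 Mb and 56.60 to 59.10 Mb, and are called the first to the sixth cluster. They held 20, 19, 39, 19, 49 and 98 regions. A further 1874 regions lay on the rest of chromosome 19. Neither scores nor widths were used to choose the members.

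The lists came from HEK293T cells, a line derived from human embryonic kidney, for which the labels name no treatment or modification. Each of the 3 repeats, MeRIP 1, MeRIP 2 and MeRIP 3, paired an immunoprecipitated library with its input, making 6 samples. In this assay an antibody against m6A enriches methylated RNA fragments, and enrichment over the input is called as peaks. Whether the repeats were separate cultures cannot be read from the labels, so p-values measure only the spread between these lists, which may be technical. Peaks per list numbered 192, 191 and 194 in the clusters and 1564, 1480 and 1490 on the rest of the chromosome. The number of reads is unknown from peak lists.

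Zinc finger genes, most of them with ZNF symbols, make up the largest group of human transcription factors. Many carry a KRAB domain, which recruits a repressor complex, and many of their proteins bind transposable elements. The genes arose largely by tandem duplication, so that neighbours on chromosome 19 are close in sequence. In a typical member a few short exons, among them one for the KRAB A box, precede a long last exon that encodes the whole array of zinc fingers and the 3′ untranslated region. m6A is known to be frequent in long exons and near stop codons. In the RefSeq gene table of GRCh38.p14, 250 of 1451 protein-coding genes of chromosome 19 had a ZNF symbol, and 8 runs of at least 10 neighbouring ZNF genes held 134 of them. The longest run held 27 genes, from ZNF737 to ZNF681. That table is of another build than the lists and its coordinates were not used. Regions were therefore not assigned to genes, and the cluster label was not checked gene by gene. Other kinds of gene can lie in the windows, and zinc finger genes can lie on the rest of the chromosome.

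The regions of the clusters were long. Their median width was 1394.5 bp, with a range from 44 to 5848 bp, against 275 bp on the rest of chromosome 19 and 371 bp on the other chromosomes. Of the 244 regions, 141 (57.8%) were over 1000 bp wide, against 23.1% of all regions in the series and 19.4% on the rest of the chromosome. Regions over 2000 bp made up 31.1% of the members and 7.74% of the rest of chromosome 19. The cluster medians were 1704, 1942, 1536, 1643, 1352 and 902.5 bp from the first to the sixth, so every cluster lay above the rest of the chromosome. In the second cluster this rested on regions missing from a list. Its 5 regions found in every list had a median of 299 bp, against 361 bp for such regions on the rest. Its median peak width in MeRIP 1 was 330.5 bp, against 301 bp on the rest. At the other end, 51 regions were at most 200 bp wide, and 52 were between these bounds.

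**Figure D1:**
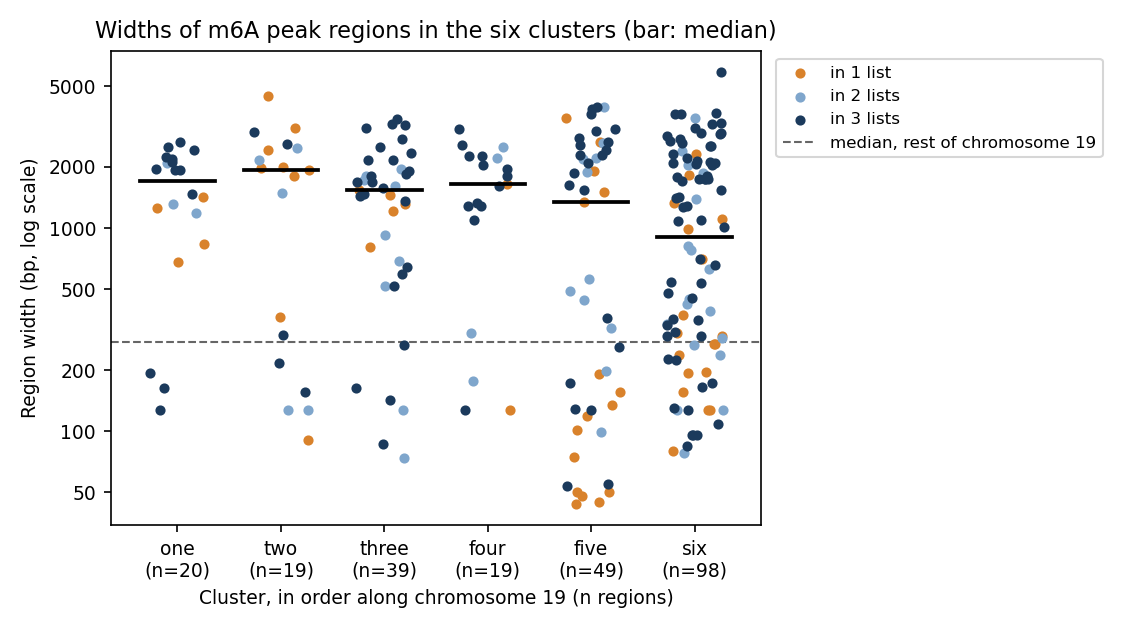
Width of each region (bp, log scale) by cluster in order along chromosome 19; points are regions, coloured by the number of lists that held them, black bars are cluster medians and the dashed line is the median of the rest of chromosome 19 (275 bp). Of the 244 points 141 lie over 1000 bp and 51 at or under 200 bp, and the sixth cluster holds 32 of the 52 in between.

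Per list, the median peak width in the clusters was 1359.5 bp in MeRIP 1, 1496 bp in MeRIP 2 and 1479 bp in MeRIP 3. The corresponding values outside the clusters were 301, 318.5 and 312 bp. The ranges over lists did not overlap, and the difference was 1134 ± 65.9 bp (SD, n = 3 lists). It had the same direction in 3 of 3 lists, for which a two-sided exact sign-flip permutation test over lists gives p = 0.25, the smallest that 3 lists allow. No comparison over lists below can give a smaller p.

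Among the 22 members of 3000 bp or more, 17 were found in every list. Of peaks over 2000 bp, 85.4 ± 2.56% in the clusters lay in regions of every list (SD, n = 3 lists). On the rest of the chromosome 93.2 ± 1.41% did, and no share was taken there at 3000 bp or more. The widest member was the 5848 bp region at 58380747 to 58386594 on the minus strand of the sixth cluster. It scored 1046, 1233 and 2398 in the order of the lists. Its width is that of the merged region, which only the MeRIP 2 peak spanned. The MeRIP 1 and MeRIP 3 peaks ran from 58383670 and 58383866 to 58386594. In other wide members too, the peaks of single lists can be narrower than the region. The score is the authors' value per peak. It starts at 50 and has the form of a log p-value. Peaks at 3100 or above, up to 3233, are called peaks at the ceiling here, and scores above 3100 were set to 3100 before taking logs. The score is no measure of the methylated fraction. The widest regions of the other clusters that were found in every list spanned 2658 bp in the first (11942183 to 11944840, plus strand) and 2981 bp in the second (21299613 to 21302593, plus strand). They spanned 3456 bp in the third (37238251 to 37241706, minus strand) and 3090 bp in the fourth (44678818 to 44681907, plus strand). In the fifth the widest spanned 3964 bp (53300992 to 53304955, minus strand).

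Scores of these long regions differed widely. The 2658 bp region of the first cluster scored 1606, 1044 and 1214 in MeRIP 1, 2 and 3, and the 3456 bp region of the third scored 635, 775 and 519. The 3964 bp region of the fifth scored 375, 156 and 66.7. The 2981 bp region of the second scored 124, 65.4 and 61.9, close to the lowest score listed. Among the widest members scores ran from the bottom to the top of the scale, and 5 members of at least 3000 bp were at the ceiling in every list. Of these 5, 1 lay in the third cluster (36726561 to 36729675, plus strand) and the others in the sixth. Of peaks over 2000 bp, 16.3 ± 4.29% were at the ceiling in the clusters and 58.3 ± 3.26% on the rest of the chromosome (SD, n = 3 lists). The median score of cluster peaks was 157 ± 28.3 up to 200 bp and 888 ± 141 over 2000 bp.

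**Figure D2:**
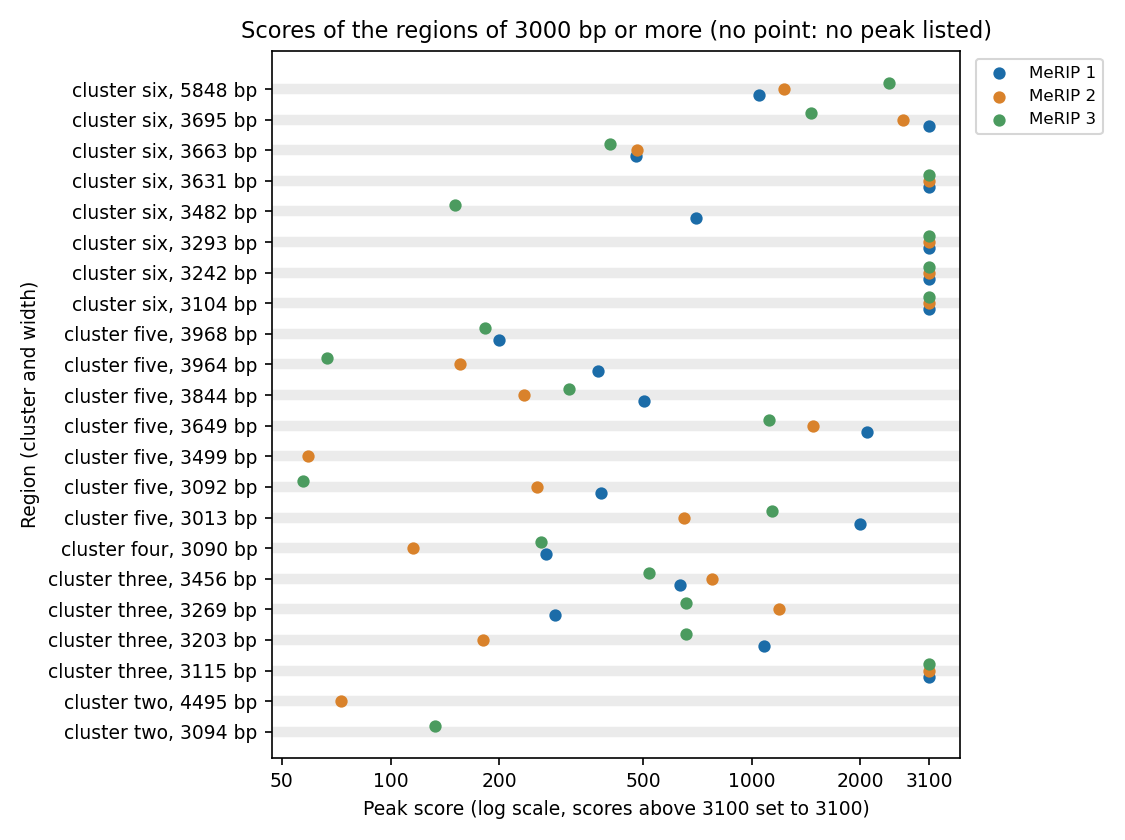
Score of each of the 22 regions of 3000 bp or more in each list (log scale, scores above 3100 set to 3100), grouped by cluster and labelled with the region's width; a missing point means that no peak was listed. The 5 regions at 3100 in all lists lie in the third and the sixth cluster, and the regions of the fifth cluster lie between 57.3 and 2090.

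Given their width, the peaks of the clusters scored low. For peaks over 2000 bp the median score was 888 ± 141 (SD, n = 3 lists) in the clusters, with a range of 726 to 988. On the rest of the chromosome it was at the ceiling of 3100 in each list. For peaks over 1000 and up to 2000 bp the medians were 563 ± 114 and 2410 ± 99.5. The difference of median log2 scores between clusters and rest was -2.12 ± 0.34 in that class and -1.82 ± 0.24 over 2000 bp, where the ceiling holds down the size of the difference. It was -1.59 ± 0.44 over 400 and up to 1000 bp, -1.46 ± 0.10 over 200 and up to 400 bp, and -0.49 ± 0.20 up to 200 bp. All 5 classes were lower in 3 of 3 lists (two-sided exact sign-flip permutation p = 0.25 in each). Against the other chromosomes, 4 of the 5 classes were lower in 3 of 3 lists, with -1.81 ± 0.23 over 2000 bp. In the class up to 200 bp that difference was -0.15 ± 0.24, which is within the spread between lists.

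Over all widths, the score differed less. The median score in the clusters was 443, 427 and 388 in MeRIP 1, 2 and 3, and on the rest of the chromosome 511, 525 and 562. The groups did not overlap, with a log2 difference of -0.35 ± 0.17 (SD, n = 3 lists; two-sided exact sign-flip permutation p = 0.25). Set against the other chromosomes, the difference was -0.01 ± 0.15, within the spread between lists. RNA level, which sets how many reads stand behind a peak, is not given in the lists. Near-identical neighbours can also share or lose reads, and the sources used here do not say how reads matching several genes were handled. The part of either in these scores was not tested.

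**Figure D3:**
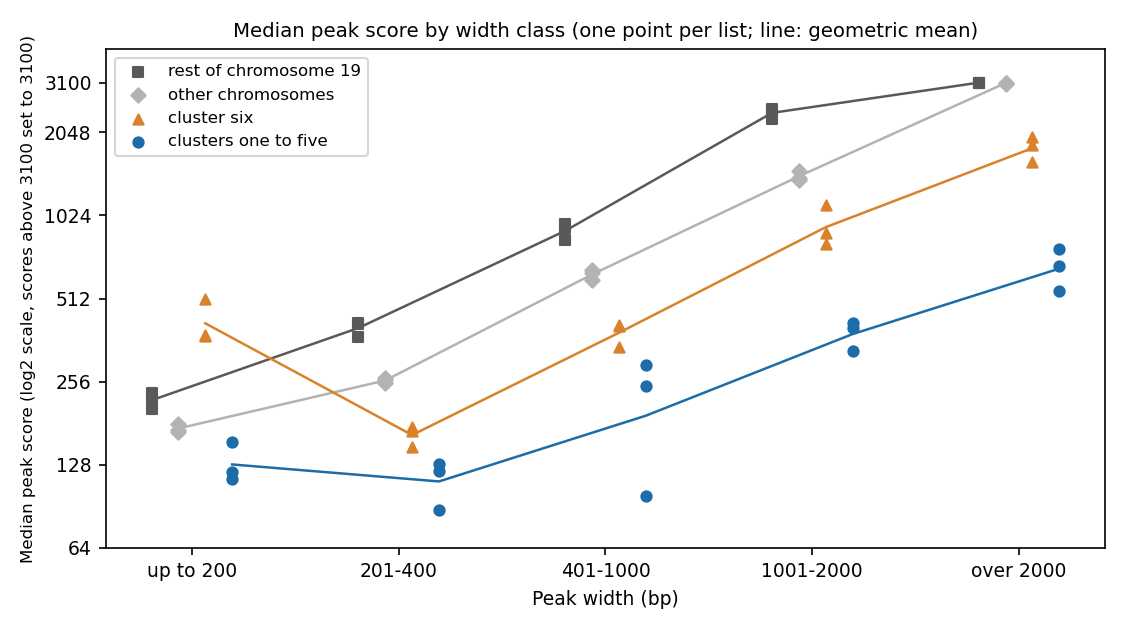
Median score of peaks (log2 scale, scores above 3100 set to 3100) in 5 classes of peak width, with 1 point for each list and a line through the geometric means; squares are the rest of chromosome 19, diamonds the other chromosomes, triangles the sixth cluster and circles the other five clusters pooled. Scores rise with width in both comparison sets, and in the classes over 200 bp the cluster points lie below both comparison sets in each class. Over these classes the scores of the clusters rise with width too.

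Few members reached the top of the score scale. Of the cluster peaks, 9.38%, 7.85% and 6.19% were at the ceiling in MeRIP 1, 2 and 3, against 21.5%, 21.2% and 22.0% on the rest of the chromosome. The difference was -13.8 ± 1.89 percentage points (SD, n = 3 lists; lower in 3 of 3; two-sided exact sign-flip permutation p = 0.25). Of the 140 members found in every list, 12 (8.57%) were at the ceiling in all of them, against 18.9% of all such regions in the series. Of these 12, 11 lay in the sixth cluster. In the second, the fourth and the fifth cluster no peak reached the ceiling in any list. Their highest scores were 940, 2548 and 2928.

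The sixth cluster, at the end of the long arm, stood apart from the others. Its median peak score was 639, 659 and 670 in MeRIP 1, 2 and 3, while the other five clusters pooled gave 325, 318 and 263. The ranges did not overlap, and the log2 difference was 1.12 ± 0.20 (SD, n = 3 lists; two-sided exact sign-flip permutation p = 0.25). Its median peak width was lower, at 989, 966 and 1031 bp against 1528.5, 1797 and 1604 bp. The higher score was therefore not accompanied by wider peaks. Among peaks over 1000 bp the log2 score difference was 1.22 ± 0.33, and the difference in width was 19.8 ± 30.8 bp, within the spread between lists. The share at the ceiling among such peaks was 26.9 ± 4.12 percentage points higher in the sixth cluster.

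Even so, wide peaks of the sixth cluster scored below those on the rest of the chromosome. Over 2000 bp their median was 1803 ± 192 (SD, n = 3 lists), against 664 ± 115 in the other five clusters and 3100 on the rest of the chromosome in each list. Over 1000 and up to 2000 bp the medians were 937 ± 159 and 383 ± 46.3, and 2410 ± 99.5 on the rest. In peaks of up to 200 bp the sixth cluster was high, at 421 ± 78.4 against 220 ± 15.1 on the rest of the chromosome, from 11 to 15 peaks per list. The second cluster had the lowest scores, with medians of 72.0, 113 and 95.5. Its strongest region, at 19821302 to 19823898 on the minus strand, scored 377, 348 and 940.

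The clusters also differed in their number of regions per Mb. The first to the sixth had 22.2, 4.13, 22.9, 28.4, 28.8 and 39.2 regions per Mb, against 40.1 per Mb for the rest of the chromosome between its first and last peak. That length includes a stretch past the upper bound of the second window where the nearest region lay 5697 kb away. Leaving this stretch out would raise the rate of the rest. Counted as length, the members covered 342 kb of 12.07 Mb. The regions on the rest covered 1182 kb of 46.7 Mb, with this stretch included. The second cluster is the longest window, at 4.6 Mb, and held 19 regions. Peaks in the lists carry running numbers that rose along the genome at every step, so missing numbers show how many calls lie between listed peaks. In the second cluster 6 of 115 numbers were listed in MeRIP 1, 13 of 72 in MeRIP 2 and 15 of 83 in MeRIP 3, a mean of 13.8 ± 7.42% (SD, n = 3 lists). On the rest of the chromosome 34.9 ± 2.09% were listed, and in the sixth cluster 36.1 ± 4.34%. The lists are named as lists of mRNA m6A peaks, and the sources used here say nothing further on what sets an unlisted call apart. The low count of the second cluster is therefore a count of listed peaks.

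Pooled over widths, recurrence was close to that of the series, and it was lower in the width classes over 400 bp. Over 1000 bp this held for the first to the fifth cluster pooled and not for the sixth. Of the 244 members, 140 (57.4%, 95% Wilson interval 51.1 to 63.4%) had a peak in every list, 50 in 2 lists and 54 in 1 list, where 59.3% of all regions in the series had a peak in every list. On the rest of the chromosome the share was 61.8% (59.6 to 64.0%), and the intervals overlapped. Intervals here cover counting error only, and regions are not independent replicates. Counted as peaks per list, 74.0%, 73.8% and 72.2% of cluster peaks lay in such regions, against 74.5%, 78.9% and 78.3%. The difference was -3.93 ± 2.99 percentage points and ran from -6.16 to -0.53 (lower in 3 of 3 lists; two-sided exact sign-flip permutation p = 0.25).

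Wider peaks recurred more often in both sets, and the members are wide. Over 400 and up to 1000 bp, 61.0 ± 3.65% (SD, n = 3 lists) of cluster peaks lay in regions of every list, against 79.0 ± 1.15% on the rest of the chromosome and 79.9 ± 2.40% on the other chromosomes. Over 1000 and up to 2000 bp the shares were 76.3 ± 2.61%, 88.4 ± 3.28% and 87.9 ± 2.14%. Over 2000 bp they were 85.4 ± 2.56%, 93.2 ± 1.41% and 93.8 ± 0.501%. With peaks over 1000 bp removed before merging, the difference from the rest of the chromosome was -15.0 ± 1.18 percentage points (two-sided exact sign-flip permutation p = 0.25). In that setting a narrower peak whose partners in other lists were over 1000 bp counted as not recurring. The value is therefore not on the same measure as the class shares. In the class up to 200 bp the clusters had 62.9 ± 1.8% and the other chromosomes 61.2 ± 3.86%, within the spread between lists. Over 200 and up to 400 bp the clusters had 62.4 ± 9.13%. The rest of the chromosome had 75.8 ± 4.49% in that class and the other chromosomes 70.1 ± 2.64%.

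The first, the third, the fourth and the sixth cluster had 65.0%, 64.1%, 68.4% and 63.3% of their regions in every list. The fifth had 44.9% (31.9 to 58.7%, 22 of 49 regions) and the second 26.3% (11.8 to 48.8%, 5 of 19), whose intervals lie below that of the rest of the chromosome. In the second cluster, 13 of 19 regions had no peak in MeRIP 1, against 6 without one in MeRIP 2 and 4 in MeRIP 3. Of the 25737 regions in the series, 4561, 5982 and 5806 had no peak in MeRIP 1, 2 and 3. The region at 20988633 to 20990128 on the plus strand, for example, scored 356 in MeRIP 2 and 596 in MeRIP 3 and had no peak in MeRIP 1.

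Of the 54 regions found in a single list, 23 (42.6%) were over 1000 bp wide, against 6.57% on the rest of the chromosome. Their median width was 692 bp in the clusters and 179 bp on the rest, and it differed between clusters. It was 127 bp in the fifth (16 regions) and 281 bp in the sixth (18 regions), and from 885 to 1970 bp in the others, with 2 to 9 regions each. The 4495 bp region at 23541033 to 23545527 on the minus strand of the second cluster was listed in MeRIP 2 alone, at a score of 72.7, and the 3499 bp region at 53883975 to 53887473 of the fifth (plus strand) in MeRIP 2 alone, at 59.1. The strongest of this kind in the first cluster scored 156 (12575130 to 12576547, minus strand), in the second 179 (21365426 to 21367842, plus strand) and in the fourth 56.6 (44376587 to 44378229, minus strand). In the third the strongest scored 881 in MeRIP 3 (37266288 to 37267508, plus strand), and in the fifth 258 in MeRIP 1 (53395467 to 53395541, minus strand). The highest of all was at 57931003 to 57933307 on the plus strand of the sixth cluster, with 2462 in MeRIP 1 and no peak in the other lists. No member at the ceiling in 1 list was missing from another.

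Agreement of scores between lists differed among clusters. Among 120 members found in every list and below the ceiling in each, 55 (45.8%) had scores within 2-fold of one another, against 52.4% of all such regions in the series and 57.1% on the rest of the chromosome. The counts were 7 of 12, 2 of 5, 7 of 23, 3 of 13, 9 of 22 and 27 of 45 from the first to the sixth cluster. The first, at 58.3%, and the sixth, at 60.0%, were not below the rest of the chromosome. The SD of the log2 score ratio of MeRIP 2 to MeRIP 1 was 1.17 for the members, 0.96 for the rest of the chromosome and 1.02 for the other chromosomes. That of MeRIP 3 to MeRIP 1 was 1.25, 0.98 and 1.04 in the same order. That of MeRIP 3 to MeRIP 2 was 0.93, 0.86 and 0.95, so the members were not the most variable in that pair.

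The members with the largest spread went in different directions. At 37003399 to 37006601 on the minus strand of the third cluster the scores were 1083, 180 and 660, and at 12297385 to 12299801 on the plus strand of the first they were 740, 148 and 662. In both, MeRIP 2 was the low list. At 53115618 to 53118050 on the minus strand of the fifth, MeRIP 2 was the high list, with 58.2, 469 and 105. MeRIP 1 was the low list at 44469956 to 44471752 on the plus strand of the fourth cluster, with 62.3, 1737 and 2461. It was low also at 59009700 to 59010058 on the minus strand of the sixth, with 195, 1920 and 2319. A 157 bp region of the second cluster, at 19843765 to 19843921 on the minus strand, scored 65.9, 113 and 245.

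In the first and the fifth cluster most scores were lower in MeRIP 2 and MeRIP 3 than in MeRIP 1. Of the 12 such regions of the first, 11 scored lower in MeRIP 2 than in MeRIP 1, as did 17 of 22 in the fifth, against 57.8% of all regions in the series. For MeRIP 3 against MeRIP 1 the counts were 9 of 12 and 15 of 22, against 52.0%. The median log2 difference of MeRIP 2 from MeRIP 1 was -0.45 in the first cluster and -0.67 in the fifth, and -0.16 on the rest of the chromosome. In the third it was 0.33, the opposite direction. The difference between clusters was not tested, since each such median has no replicate of its own.

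Long members shared their upstream edge and differed at the downstream edge. Upstream and downstream follow the deposited strand. Of 137 members with 1 peak in each list, 55 (40.1%, 95% Wilson interval 32.3 to 48.5%) had both edges identical to the base in all lists, against 72.7% of all such regions in the series. A further 69 (50.4%) shared the upstream edge alone, against 20.4% in the series, and 4 shared the downstream edge alone. On the rest of the chromosome 84.0% (81.8 to 86.0%) had both edges identical.

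The difference was also seen among wide regions alone. Among 93 members over 1000 bp, 67 (72.0%, 62.2 to 80.1%) shared the upstream edge alone, against 48.4% of all regions of this width in the series and 34.3% (29.0 to 39.9%) on the rest of the chromosome. Over 2000 bp the count was 45 of 56 (80.4%, 68.2 to 88.7%), against 55.5% in the series and 42.4% (33.8 to 51.4%) on the rest. Over 1000 and up to 2000 bp it was 22 of 37 (59.5%, 43.5 to 73.7%), against 43.9% in the series and 28.6% (22.3 to 35.8%) on the rest. The other chromosomes had 44.7% (42.8 to 46.6%) in that class, an interval that overlaps that of the members. Among regions over 1000 bp that were below the ceiling in every list, 57 of 76 members (75.0%, 64.2 to 83.4%) did so, against 45.8% (37.2 to 54.7%) on the rest and 54.7% (52.6 to 56.7%) on the other chromosomes. The intervals for the members did not overlap those of either set. This is 1 value over the 3 lists together, so no test over lists was made.

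In each cluster the upstream edge alone had a larger share than in either comparison set. Among regions over 1000 bp the upstream edge alone was shared by 7 of 10, 2 of 2, 13 of 18, 10 of 12, 11 of 14 and 24 of 37 from the first to the sixth cluster. The other chromosomes had 48.8% (47.3 to 50.3%). The intervals of the first, the second, the third and the sixth cluster overlapped that interval. Downstream edge alone was shared by 1 region, in the sixth. Where the upstream edge was shared, the downstream edges of the lists lay apart by 4 to 3119 bp, with a median of 131 bp, against 139.5 bp on the rest of the chromosome. The largest shift, 3119 bp, was in the 5848 bp region of the sixth cluster described above. In the region at 11727510 to 11729629 on the plus strand of the first cluster the downstream edges lay within 4 bp, while the scores were 2215, 1476 and 493.

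**Figure D4:**
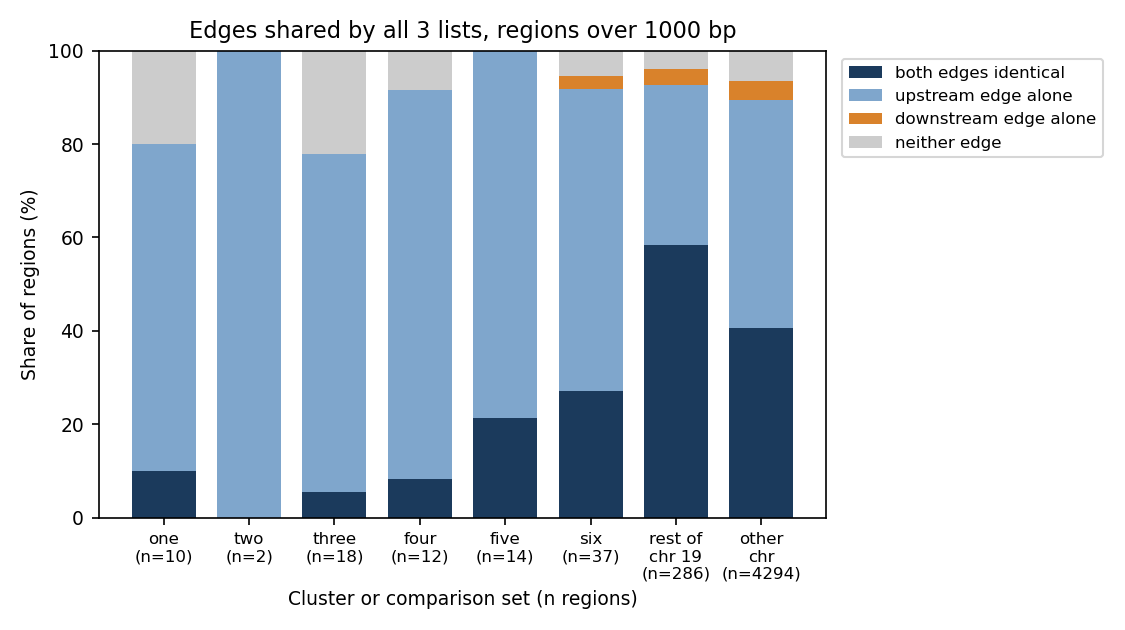
Share of regions over 1000 bp with 1 peak in each list (%), by which edges were identical in all 3 lists, for each cluster, the rest of chromosome 19 and the other chromosomes, with the number of regions under each bar. The upstream edge alone makes up 64.9% of the sixth cluster and at least 70.0% of each other cluster, against 34.3% on the rest of the chromosome and 48.8% on the other chromosomes.

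Narrow members repeated 1 width to the base. Of the 51 members of up to 200 bp, 12 (23.5%, 95% Wilson interval 14 to 36.8%) were exactly 127 bp wide. In the series 1.10% of regions of up to 200 bp had this width, and on the rest of the chromosome 7 of 716 did (0.978%, 0.474 to 2.0%). The most frequent width among narrow regions on the rest of the chromosome was 138 bp, with 12 of 716. The 127 bp regions were found in all 6 clusters, 6 on each strand. A width of 96 bp came next, with 3 members, all in the sixth cluster. Both widths were singled out after the values were seen, so no test was made.

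**Figure D5:**
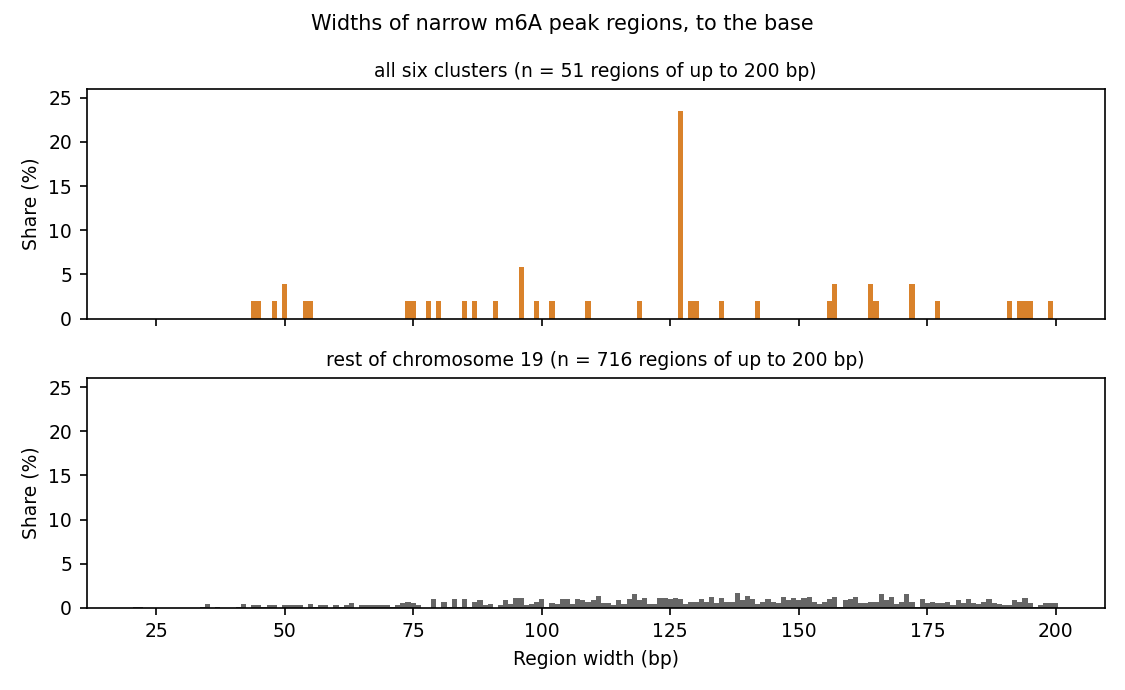
Share of regions of up to 200 bp (%) at each width in bp, above for the 51 regions of the clusters and below for the 716 on the rest of chromosome 19. In the clusters 23.5% stand at 127 bp and 5.88% at 96 bp, while no width on the rest of the chromosome exceeds 1.68%.

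The 127 bp regions were mostly weak. All but 1 of them scored at most 305 in any list. Those in every list numbered 4, those in 2 lists 5 and those in 1 list 3. At 12577538 to 12577664 on the minus strand of the first cluster the scores were 165, 72.1 and 86.8, and at 53418449 to 53418575 on the minus strand of the fifth they were 61.4, 60.7 and 62.3. The exception lay at 57795919 to 57796045 on the plus strand of the sixth cluster, where the lists gave 3100, 3233 and 2655.

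Wide regions often followed the narrow ones along the strand. Of the 12 regions of 127 bp, 8 had a member over 1000 bp within 10 kb downstream, at gaps of 990 to 9023 bp. The strongest was followed after 6021 bp by a 3242 bp region (57802067 to 57805308) at the ceiling in every list. That at 19825170 to 19825296 on the minus strand of the second cluster was followed after 1271 bp by the cluster's strongest region. Over all 51 narrow members, 19 (37.3%, 25.3 to 51.0%) had a region over 1000 bp within 10 kb downstream and 4 (7.84%, 3.09 to 18.5%) had one upstream. On the rest of the chromosome these shares were 19.7% (16.9 to 22.8%) and 5.87% (4.37 to 7.83%), so downstream neighbours were more frequent in both sets. Regions over 1000 bp make up a larger share of the members than of the rest, and the part of this in the difference was not tested.

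Members found in every list mostly stood apart from each other. When regions found in every list were chained where they lay within 10 kb of each other on a strand, 104 of 120 chains in the clusters (86.7%, 95% Wilson interval 79.4 to 91.6%) held a single region, against 76.5% in the series and 63.1% (59.4 to 66.7%) on the rest of the chromosome. No chain had more than 3 regions, where the rest of the chromosome had chains of up to 14. Counted over all 244 members, in any number of lists, 121 (49.6%, 43.4 to 55.8%) had another member within 10 kb on the strand, against 78.9% (77.0 to 80.7%) on the rest of the chromosome and 58.2% (57.6 to 58.8%) on the other chromosomes. In the sixth cluster 66 of 98 did, and in the others 21.1 to 46.9%. The clusters also hold fewer regions per Mb, and the part of this was not tested. Among the chains, the first, the second and the third cluster had only single regions. Of the 16 longer chains 13 lay in the sixth cluster, which also held the most regions per Mb. The widest region was the last along the strand in 12 of the 16 (75.0%, 50.5 to 89.8%) and in 58.0% (51.7 to 64.1%) on the rest, with overlapping intervals.

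Chains of 3 show the arrangement. On the plus strand of the sixth cluster, at 57791853 to 57805308, widths of 352, 127 and 3242 bp followed each other. At 58838385 to 58852574 on the same strand they were 96, 454 and 2955 bp, and at 58865723 to 58880728 on the minus strand 1739, 172 and 3293 bp. In the other chain of 3, at 57759973 to 57773918 on the plus strand, the order was 96, 2103 and 1416 bp, with the widest in the middle.

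The fifth and the sixth cluster differed in the strand that held most regions. Over all 6 clusters 127 regions lay on the plus and 117 on the minus strand. From the first to the sixth the counts on the plus and minus strand were 6 and 14, 10 and 9, 18 and 21, 13 and 6, 16 and 33, and 64 and 34. The share on the plus strand was 32.7% (95% Wilson interval 21.2 to 46.6%) in the fifth and 65.3% (55.5 to 74.0%) in the sixth, and these intervals did not overlap. The intervals of the first 4 clusters include an even split. No members on opposite strands overlapped, and 6 such overlaps were found over the 1874 regions on the rest of the chromosome, too few to compare.

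At the bounds of the windows, values inside and outside overlapped. The 12 members nearest to a bound were 127 to 2597 bp wide, with a median of 1934 bp and highest scores of 95.9 to 3100. The 11 nearest regions outside were 160 to 2547 bp wide, with a median of 1466 bp and highest scores of 53.8 to 3100. Wide regions thus continued past the bounds.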

How the data were processed

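Per the labels' protocols, input and immunoprecipitated RNA were depleted of ribosomal RNA. Per the submitters' processing notes, reads were handled with cutadapt 1.9.3 and HISAT2 2.0.4 and the build was hg19. Each repeat has 1 deposited peak list, named as a list of mRNA m6A peaks. It gives every peak a position, a strand and the score that the authors' peak caller assigned. Peak names carry the word MACS, and neither its version nor its settings are stated in the sources used here. The scale of the score, -10 times a log10 p-value by its form, is read from the values and the name. Scores above 3100 were set to 3100 before taking log2. Starts are counted from 1.

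Medians and shares were taken per list, and differences within a list were tested over the 3 lists by a two-sided exact sign-flip permutation test. Regions named are, for each cluster, the widest in every list, that with the largest spread below the ceiling and the strongest in 1 list alone, and, over all clusters, those of at least 3000 bp, the longest chains, and regions at the ceiling in 1 list and missing from another, of which there were none. Other regions were chosen after their values were seen. The members and lists were chosen with earlier results of these data known. Merging, the counts of regions and the score difference were checked on simulated lists, on which the sign-flip test was also run. Simulated peaks of a region had the same edges in every list. Merging of peaks with differing edges, the edge comparison and the chains were therefore not covered. The work used SciPy 1.17.1 with NumPy 2.4.6, Matplotlib 3.10.9 and pandas 2.3.3 under Python 3.11.15. No genome of the files' build was used here, so no sequence is shown.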

Additional observations from a re-analysis of the deposited data

How the results depend on the processing

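No paired analysis was possible because the lists hold no separate values for the immunoprecipitated and input samples, so a replicate block could not be fitted. The differences are taken within each list. With the rest of chromosome 19 as comparison, the mean differences in width, score, share at the ceiling and recurrence kept their sign under every alternative run, and none can reach p under 0.25 with 3 lists. The log2 score difference was -0.35, -1.60 within width classes and -0.82 without the sixth cluster. Against the rest of the genome it was -0.03 ± 0.14 (SD; two-sided exact sign-flip permutation p = 1), within the spread between lists. Against the rest of chromosome 19 and without 1 repeat it ran from -0.42 to -0.25. The recurrence difference of -3.93 points was -15.0 with peaks over 1000 bp removed before merging. With the stronger peaks alone, those that reach the median score in their list, it was -1.07 ± 1.91 (SD, two-sided exact sign-flip permutation p = 0.75). It ran from -5.31 to -0.74 without 1 repeat. It was -0.74 ± 4.25 (SD) without MeRIP 2 and -1.10 ± 3.08 without MeRIP 3. Like the value for the stronger peaks, these lie within the spread between lists. The number of members in every list was 140. It was 73 with the stronger peaks, a setting that uses fewer peaks, and 155 to 159 in both remaining lists without 1 repeat. The share of members with identical edges was 40.1%, 31.5% with the stronger peaks, 86.7% with peaks of at most 1000 bp, which leaves out most members, and 29.9% without the sixth cluster. Without 1 repeat it was 40.8 to 44.2%. The settings that leave out a cluster were chosen after seeing the data. Without read depth, the absence of a peak does not show the absence of methylation.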
